A study of Mus musculus with 6 samples.

Results

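The Spata, Tex and Tsga genes are named for where they were found, as spermatogenesis-associated, testis-expressed and testis-specific genes, and not for a shared protein fold. The genes described here were chosen by name, with earlier results of these data known. They are all genes of the array annotation whose symbol starts with Spata, Tex or Tsga followed by a digit, with 3 names (Spata6, Spata16 and Tex12) set aside. This gave 33 genes of the 15792 measured, 13 named Spata, 16 named Tex and 4 named Tsga, with 388 of the 188590 probe sets. A probe set is a group of short DNA probes for part of an exon or transcript, and each gene is given here as the average log2 signal of its probe sets (the gene value).

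RNA of whole mouse testes was hybridised to 6 Affymetrix exon arrays, 3 from wild-type (WT) mice and 3 from mice in which Ttll5, also named Stamp, was disrupted (Ttll5/Stamp KO). Ttll5 is a tubulin glutamylase that also partners steroid receptor coactivators, and the title of the series ties its loss to malformed sperm and male infertility. Both groups share a mixed C57BL/6, 129/SvEv and FVB/N background and were littermates matched for age and sex, and no age is given in the sources used here. The labels call the arrays of a group biological replicates and tie none of them to a litter or batch, so p-values reflect only how far these 6 samples spread.

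The targeted gene separated the groups. Ttll5 read 11.16, 11.14 and 11.16 (log2 gene value) on WT arrays and 9.58, 9.49 and 9.53 on KO arrays, a difference of -1.62 (SE 0.066, limma adjusted p = 4.3e-05). The arrays had median probe set values of 6.72 to 6.77. Markers fitted the labelled tissue. The sperm tail gene Odf1 stood at 13.69 in WT, the chromatin gene Tnp2 at 13.10 and the meiotic gene Sycp3 at 11.17, while the 10 epididymal genes measured, markers of the neighbouring organ, lay between 3.23 and 4.72.

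Sperm form in the seminiferous tubule from spermatogonia, which enter meiosis as spermatocytes and become spermatids that remodel into sperm. Among the genes with known roles, Tex11 promotes meiotic crossovers, Tex14 holds open the bridges that join sister germ cells, Tex15 serves meiotic DNA repair and the silencing of transposons, and Tex19.1 restrains retrotransposons. Spata19 acts in the mitochondria of the sperm midpiece, Tsga10 is a sperm tail protein, and Tex101 is a germ cell surface protein needed for fertilisation. Others work in many tissues. Spata18 takes part in mitochondrial quality control, Spata2 links the deubiquitinase CYLD to the ubiquitin ligase complex of TNF signalling, Spata5 is an AAA ATPase of ribosome maturation, Tex10 belongs to a ribosome assembly complex, Tex264 is a receptor for autophagy of the endoplasmic reticulum, Spata7 is a protein of the photoreceptor cilium, and Tsga14, now Cep41, is a centrosomal protein tied to tubulin glutamylation in cilia.

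The promoters of 6 members show how unlike these genes are in their start regions. They are the 2 members with the highest WT signal (Spata18 and Spata4), 3 of those with the smallest p-values (Spata17, Spata19 and Tex264), and Spata7, the only member whose window holds the full cAMP response element. Each runs from 250 bases before to 50 bases after the start in RefSeq, build GRCm38.p6, 5′ to 3′ on the gene's strand, and Spata19 and Tex264 have 2 listed starts of which the first is shown. Capitals mark matches on either strand to the cAMP response element TGACGTCA and its shorter core TGACG, which lies within it, to CCAAT, to TATAAA and to GGGCGG, where adjoining matches can run together.
Spata18, chr5:73651130-73651429, + strand: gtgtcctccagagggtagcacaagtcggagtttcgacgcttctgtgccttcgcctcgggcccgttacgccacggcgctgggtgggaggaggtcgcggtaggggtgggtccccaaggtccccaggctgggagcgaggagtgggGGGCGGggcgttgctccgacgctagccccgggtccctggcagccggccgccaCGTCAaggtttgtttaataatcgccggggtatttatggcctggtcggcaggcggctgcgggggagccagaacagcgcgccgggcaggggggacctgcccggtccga
Spata4, chr8:54600531-54600830, + strand: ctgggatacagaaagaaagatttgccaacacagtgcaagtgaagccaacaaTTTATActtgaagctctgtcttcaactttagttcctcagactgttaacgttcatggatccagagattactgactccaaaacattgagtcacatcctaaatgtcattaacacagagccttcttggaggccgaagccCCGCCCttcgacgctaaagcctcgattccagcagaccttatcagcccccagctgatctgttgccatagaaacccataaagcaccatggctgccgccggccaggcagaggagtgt
Spata17, chr1:187215397-187215696, - strand: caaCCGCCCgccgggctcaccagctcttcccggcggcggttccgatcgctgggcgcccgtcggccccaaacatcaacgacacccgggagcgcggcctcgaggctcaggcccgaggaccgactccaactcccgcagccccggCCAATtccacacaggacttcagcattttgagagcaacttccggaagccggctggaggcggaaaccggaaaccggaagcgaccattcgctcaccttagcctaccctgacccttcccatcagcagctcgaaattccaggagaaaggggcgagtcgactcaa
Spata19, chr9:27396557-27396856, + strand: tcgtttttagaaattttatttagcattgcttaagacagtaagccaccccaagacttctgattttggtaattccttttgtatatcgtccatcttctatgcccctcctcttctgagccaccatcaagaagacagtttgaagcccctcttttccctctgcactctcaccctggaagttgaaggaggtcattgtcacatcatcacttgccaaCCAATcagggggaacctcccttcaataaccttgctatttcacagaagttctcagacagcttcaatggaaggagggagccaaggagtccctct
Tex264, chr9:106685903-106686202, - strand: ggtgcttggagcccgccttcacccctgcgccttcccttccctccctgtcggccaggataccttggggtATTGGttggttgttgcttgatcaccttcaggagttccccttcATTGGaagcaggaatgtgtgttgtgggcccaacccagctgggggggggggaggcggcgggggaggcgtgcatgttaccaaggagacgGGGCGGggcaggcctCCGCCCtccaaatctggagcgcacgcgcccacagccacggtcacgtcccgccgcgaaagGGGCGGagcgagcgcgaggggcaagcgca
Spata7, chr12:98627892-98628191, + strand: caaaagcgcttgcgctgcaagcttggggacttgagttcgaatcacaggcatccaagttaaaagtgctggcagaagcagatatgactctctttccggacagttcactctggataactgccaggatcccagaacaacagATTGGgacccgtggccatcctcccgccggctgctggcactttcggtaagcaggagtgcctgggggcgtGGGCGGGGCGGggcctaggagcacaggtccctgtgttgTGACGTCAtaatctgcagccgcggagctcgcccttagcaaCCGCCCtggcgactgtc

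Promoters were listed for 28 of the 33 members, 33 windows in all, and not for Spata2L, Tex11, Tex15, Tex22 and Tex24. The windows of the members had a median of 60.3% G and C and 17 CG pairs, against 52.7% and 7 over all 32851 windows. The GGGCGG box was in 51.5% of the members' windows and in 35.7% of all, CCAAT in 39.4% and 37.4%, TATAAA in 9.09% and 13.6%, TGACG in 21.2% and 20.8%, and TGACGTCA in 3.03% (1 window) and 1.79%. The highest and second highest members differ: the window of Spata18 has 69.7% G and C with 30 CG pairs, that of Spata4 48.3% with 8. Among the members with the smallest p-values, Spata17 (30 CG pairs) and Tex264 (22) have CG-rich windows and Spata19 has 2 CG pairs. A match of letters is a description of the window, not of a binding site.

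Most members were bright in the WT testis. Of the 33, 31 lay above the median gene (6.24, log2 gene value), 25 above the 80th percentile and 13 above the 95th. The median member stood at 9.84, at the 88.6th percentile of all genes. Probes differ in brightness, so the order below is one of array signal, not of transcript numbers. When the median probe set replaced the mean, 5 of the 6 highest and 5 of the 6 lowest members stayed among the 6 at their end.

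At the upper end stood Spata18, with 12.65, 12.72 and 12.70 in the WT arrays (mean 12.69, SD 0.034, n = 3), above 99.8% of genes. Spata4 followed with 12.29, 12.41 and 12.34 (12.35 ± 0.058). No WT array of Spata4 reached the lowest of Spata18, so by the mean this first step was larger than the spread over arrays. By the median probe set the order of the 2 reversed, with 12.94 for Spata4 and 12.81 for Spata18 in WT. The dimmest probe set stood at 8.41 in Spata4 and at 11.40 in Spata18. Next came Spata20 (11.60 ± 0.017), Spata7 (11.33 ± 0.026), Spata9 (11.32 ± 0.046) and Tex2 (11.27 ± 0.022), the last a lipid transfer protein of the endoplasmic reticulum. Spata7 and Spata9 overlapped, and so did Spata9 and Tex2.

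At the lower end stood Tex13, an X-linked gene that RefSeq lists as Tex13b, with 5.66, 5.50 and 5.70 (5.62 ± 0.11), and Tex19.1 with 5.77, 5.71 and 5.77 (5.75 ± 0.038). These were the only members below the median gene, and the highest WT array of Tex13 (5.70) lay next to the lowest of Tex19.1 (5.71). Above them followed Spata2L (6.89 ± 0.22), Tex19.2 (7.16 ± 0.088), Tex16 (7.39 ± 0.023) and Spata2 (7.41 ± 0.052). Tex19.1 and Tex19.2 are close paralogs and so are Spata2 and Spata2L, and whether probes read both members of a pair is not known here. Of the genes of meiosis and germ cell silencing, Tex11 stood at 7.67 ± 0.062, Tex14 at 9.26 ± 0.098 and Tex15 at 9.17 ± 0.22. Of the sperm genes, Spata19 stood at 10.90 ± 0.085, Tsga10 at 10.86 ± 0.048, Tex101 at 9.71 ± 0.057 and Tsga8, an X-linked gene of haploid germ cells, at 9.66 ± 0.069. The dimmest of the 5 probe sets of Tsga8, at 3.57 in WT, was dimmer than the lower quartile of each array. By the median probe set Tsga8 stood at 11.32, below Spata19 (11.52) and above Tsga10 (11.02) and Tex101 (9.78).

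**Figure D1:**
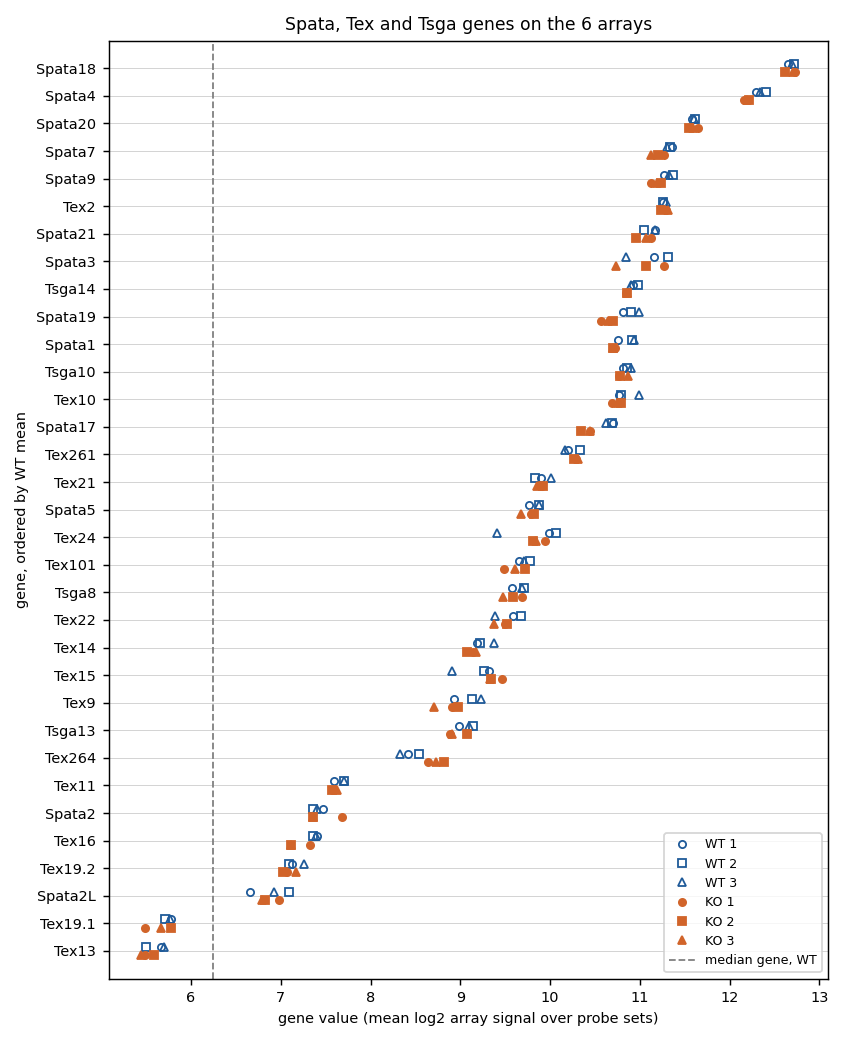
Gene values (x axis, mean log2 array signal over a gene's probe sets) of the 33 Spata, Tex and Tsga genes (y axis, ordered by WT mean), with 1 open blue symbol per WT array and 1 filled orange symbol per KO array; the dashed line is the median gene in WT at 6.24. Spata18 is highest at 12.69, Tex19.1 and Tex13 lie left of the line, and WT 3 lies below the other arrays in Tex24 and Tex15.

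WT arrays agreed closely for most members, with a median SD of 0.071, but 4 members had an SD over 0.2. Tex24 was the widest, with 9.99 and 10.06 in WT 1 and WT 2 and 9.41 in WT 3, while its KO arrays stood at 9.95, 9.81 and 9.85. Spata3 was low in WT 3 (10.84, against 11.15 and 11.32) and also in KO 3 (10.74, against 11.26 and 11.07). Tex15 was low in WT 3 as well (8.91, against 9.32 and 9.27), and Spata2L ran from 6.65 in WT 1 to 7.09 in WT 2. For these members a difference between the groups is measured less finely than for the others.

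No member changed past the threshold when KO was compared with WT. In the limma fit over all genes, 0 of the 33 had an adjusted p under 0.05, against 0.0697% of all genes, and the smallest adjusted p among them was 0.59. All 33 differences lay between -0.26 and 0.30, and every 95% confidence interval lay within a 2-fold change in either direction with bounds running from -0.47 to 0.49. The intervals had a median half-width of 0.18. Over whole testes, fewer cells of a type and less RNA per cell cannot be told apart.

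Without adjustment, 4 members (12.1%) had a limma p under 0.05, where 6.05% of all genes did. They were 3 with lower values in KO, Spata17, Spata19 and Tex16 (background 3.44% in that direction), and 1 with a higher value, Tex264 (background 2.6%). The count depended on how the variances were estimated and on the gene summary. It was 9 with trended and robust moderation, 9 with no moderation and 2 when the median probe set stood for the gene, and in each of these fits 0 members passed after adjustment.

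Values of the members lay slightly lower in KO as a group. Of the 33, 27 had a difference below 0 (51.1% of all genes did), with a median of -0.08 against -0.003 over all genes. The mean over the members came to 9.66, 9.71 and 9.67 on WT arrays and 9.63, 9.62 and 9.59 on KO arrays. These means did not overlap but lay close together. The median over the members was 9.90, 9.88 and 9.87 on WT arrays and 9.91, 9.82 and 9.85 on KO arrays. By that summary the groups overlapped, with KO 1 above every WT array. For single members, the groups did not overlap in 11 (33.3%), against 11.2% of all genes. KO lay below WT in 9 (background 6.67%) and above WT in 2, Tex15 and Tex264 (background 4.53%). These members share the arrays, so their counts are no independent evidence of one another, and no test over the list was made.

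**Figure D2:**
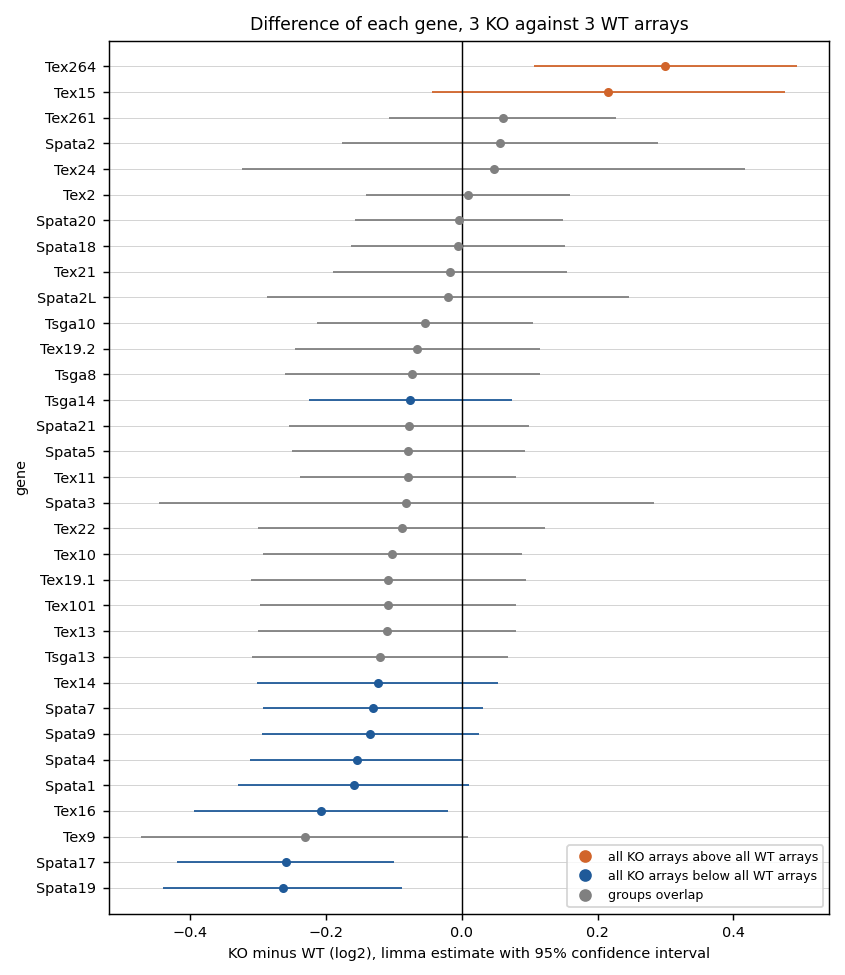
Difference between KO and WT (x axis, log2, limma estimate with its 95% confidence interval, 3 arrays per group) for each of the 33 genes (y axis, ordered by difference). Points are blue where all KO arrays lay below all WT arrays (9 genes), orange where they lay above (2 genes) and grey where the groups overlapped; the estimates run from -0.26 to 0.30.

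Spata17 had the smallest p-value of all members. Its values were 10.70, 10.69 and 10.63 in WT and 10.45, 10.34 and 10.45 in KO, so every KO array lay below every WT array. The difference was -0.26 (SE 0.069, 95% interval -0.42 to -0.10, limma adjusted p = 0.59), or 1.20-fold lower, and ran from -0.28 to -0.22 over 14 alternative settings. All 14 of its probe sets had differences below 0, from -0.78 to -0.01. The groups did not overlap in 9 of them, against 10.2% of all probe sets. These 14 make up the gene value and share the arrays, so their agreement is no separate evidence. The same holds for the other members. The 2 brightest probe sets, at 13.27 and 13.22 in WT, differed by only -0.01 and -0.03, and the 2 dimmest, at 8.41 and 8.71, by -0.41 and -0.78.

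Spata19, the midpiece gene, lies on chromosome 9. Its WT arrays read 10.82, 10.90 and 10.99 and its KO arrays 10.57, 10.70 and 10.65, again without overlap. The difference was -0.26 (SE 0.076, 95% interval -0.44 to -0.09, limma adjusted p = 0.63), which is 1.20-fold lower. Each of the 8 probe sets had a lower value, evenly so, with differences of -0.39 to -0.13. Its dimmest probe set, at 4.28 in WT, was dimmer than the lower quartile of each array, so it may hold only background.

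The other sperm genes had smaller differences and overlapping groups. Tsga10 differed by -0.05 (95% interval -0.21 to 0.10), Tex101 by -0.11 (-0.30 to 0.08) and Tsga8 by -0.07 (-0.26 to 0.11). The intervals of these 3 reach at most a fall of 0.30 on the log2 scale, so a change of 2-fold in either direction lies outside them, while one of the size of Spata19 does not for Tex101.

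Tex264, the autophagy receptor, was the member with the highest positive difference. Its WT arrays read 8.42, 8.54 and 8.33 and its KO arrays 8.64, 8.82 and 8.72, with all KO arrays above all WT arrays. The difference was 0.30 (SE 0.084, 95% interval 0.11 to 0.49, limma adjusted p = 0.63), or 1.23-fold higher. Of its 7 probe sets 6 were higher, by 0.11 to 0.66, and the 1 that was not had a dim WT level of 4.14. The brightest, at 10.42 in WT, had 11.02, 11.25 and 10.96 in KO against 10.47, 10.52 and 10.27 in WT. With the median of the probe sets the gene's difference was 0.18, and it stayed above 0 in all 14 alternatives. Like Spata19, Tex264 lies on chromosome 9.

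Tex16, a gene of the X chromosome, stood at 7.41, 7.36 and 7.40 in WT. Its KO arrays were uneven, with 7.33 in KO 1 and 7.11 in both KO 2 and KO 3. The difference was -0.21 (SE 0.081, limma adjusted p = 0.79) and -0.28 without KO 1. The other X-linked members, Tex11, Tex13 and Tsga8, had overlapping groups, with differences of -0.08, -0.11 and -0.07.

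The genes of meiosis and silencing had 4 of 5 values below 0. Tex14 read 9.19, 9.22 and 9.37 in WT and 9.15, 9.08 and 9.18 in KO, a difference of -0.12 (95% interval -0.30 to 0.05) with groups that just failed to overlap. Tex11 differed by -0.08, Tex19.1 by -0.11 and Tex19.2 by -0.07, each with overlap. Tex15 was the exception at 0.22 (SE 0.11, limma adjusted p = 0.87), and this value rested on WT 3, without which it was 0.09. In WT 3 a pair of its 11 probe sets stood far below the other arrays. The first had 9.32, 8.89 and 6.22 in WT and 9.35 to 9.62 in KO, and the second had 9.93, 9.54 and 8.11 in WT and 10.08 to 10.17 in KO. The remaining 9 probe sets of Tex15 differed by -0.37 to 0.36.

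The highest members hardly differed or differed little. Spata18 had 12.73, 12.62 and 12.71 in KO, overlapping with WT, and a difference of -0.01 (95% interval -0.16 to 0.15). Spata4 had 12.16, 12.22 and 12.20 in KO, below all WT arrays, and a difference of -0.16 (-0.31 to 0.002, limma adjusted p = 0.83), with all 8 probe sets lower. Spata20 differed by -0.005 (-0.16 to 0.15) and Tex2 by 0.01 (-0.14 to 0.16). Spata9 differed by -0.14 (limma adjusted p = 0.86) and Spata7 by -0.13 (0.87), both also with KO below all WT arrays. Spata1, of rank 11 by WT level, differed by -0.16 without overlap (limma adjusted p = 0.84).

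Of the genes of cilium and centrosome, Spata7 differed by -0.13 (95% interval -0.29 to 0.03) and Tsga14 by -0.08 (-0.23 to 0.07). In both, KO lay below WT on every array. Tsga14 was the most even member in KO, with 10.85, 10.86 and 10.86. In Spata7 a single probe set stood out at -0.91 (limma adjusted p = 0.86), with 8.65, 9.08 and 8.40 in WT and 8.25, 7.57 and 7.58 in KO, whereas the median of the other 12 was -0.06.

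Members with general cell functions showed no common direction. Besides Spata18, Tex2 and Tex264, Spata2 differed by 0.06, Spata5 by -0.08 and Tex10 by -0.10, each with overlapping groups. Spata2 had 7.68 in KO 1 against 7.36 in both KO 2 and KO 3, and without KO 1 its difference was -0.05. Of the 6 in this group, 3 had values above 0 and 3 below, with a median of 0.002.

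The members of unstated role not yet described had overlapping groups. Spata21 differed by -0.08, Spata3 by -0.08, Spata2L by -0.02, Tsga13 by -0.12, Tex22 by -0.09, Tex24 by 0.05 and Tex261 by 0.06. Without WT 3 the difference of Tex24 was -0.16. Tex9, on chromosome 9, had the third largest negative difference at -0.23 (SE 0.10, limma adjusted p = 0.84), with 8.93, 9.13 and 9.23 in WT and 8.91, 8.98 and 8.71 in KO. Of its 15 probe sets 14 were lower. The difference of Tex9 was -0.16 without WT 3, -0.15 without KO 3 and -0.31 without WT 1.

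Ttll5 lies on chromosome 12, which also carries Tex21, Spata7 and Tex22, at distances of 9.63, 12.8 and 27.2 Mb in GRCm38.p6. Chromosome 9, which does not carry Ttll5, holds Spata19 (-0.26), Tex9 (-0.23) and Tex264 (0.30), which do not share a direction. In all, 6 members lie on chromosomes 9 and 12. An effect of position was not tested. Tex21 differed by -0.02 (95% interval -0.19 to 0.15) as a mean over 13 probe sets, but these were mixed. The leading probe set was higher by 0.66 (limma adjusted p = 0.86), with 10.01, 9.99 and 10.51 in WT and 10.95, 10.76 and 10.78 in KO. A second was higher by 0.36, and others were lower by up to 0.44. With the median of the probe sets, where the middle of 13 levels sets the value, the gene's difference was 0.50 (limma adjusted p = 0.67).

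**Figure D3:**
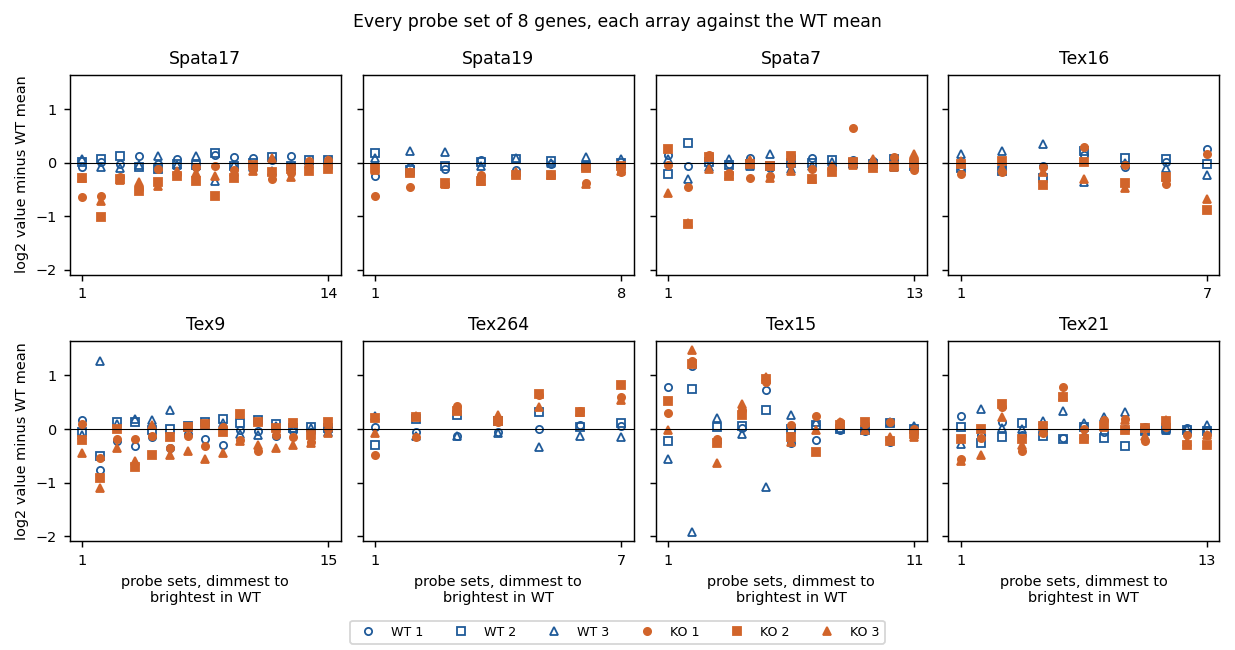
Every probe set of 8 members (x axis, ordered from the dimmest to the brightest in WT), with each array drawn as its log2 value minus the WT mean of that probe set (y axis), open blue symbols for WT and filled orange symbols for KO. All KO points of Spata19 lie at or below 0, those of Tex264 lie mostly above, Tex21 is mixed, and in Tex15 a pair of probe sets is set by the low WT 3.

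At the level of single probe sets, 0 of the 388 of the members passed the limma test over all probe sets, against 0.0382% of all. Without adjustment 24 (6.19%) had p under 0.05, close to the 5.36% of all probe sets. Of the 388, 17 were lower at that p, where 2.74% of all probe sets were, and 7 were higher, where 2.62% of all were. Differences below 0 were found in 275 of 388 (70.9%), against 49.9% of all probe sets. The groups did not overlap in 63 (16.2%, against 10.2%). The 388 probe sets belong to 33 genes and share the arrays, so these counts are no independent evidence of one another. In WT only 9 of the 388 were dimmer than each array's lower quartile, so few of these values come from dim probe sets.

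Other genes of the same germ cell stages were set beside the members. Of 40 listed genes of spermatid differentiation 35 were measured. None passed the limma threshold (2, or 5.71%, had an unadjusted p under 0.05, against 6.05% of all genes), 32 had differences below 0, and the median was -0.06. The sperm-egg fusion gene Izumo1 differed by -0.23 (SE 0.084, limma adjusted p = 0.77), the transition protein Tnp1 by -0.19 (0.81), the acrosomal protein Spaca1 by -0.14 (0.86) and the protamine Prm1 by -0.14 (0.87). Of 21 genes of meiotic prophase 12 were below 0, with a median of -0.01 and 0 with an unadjusted limma p under 0.05. Of 13 genes of spermatogonia 9 were below 0, with a median of -0.07, and here too 0 had an unadjusted limma p under 0.05. The members' median of -0.08 lies beside those of both the spermatid genes (-0.06) and the spermatogonia genes (-0.07). Differences between the lists were not tested.

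Values of somatic cell markers lay higher in KO in part. All 10 Leydig cell genes measured, which make testicular androgen, had values above 0, with a median of 0.22. Their mean level was 9.21 to 9.46 in the WT arrays and 9.59 to 9.71 in the KO arrays. Of 11 macrophage genes 8 were above 0, with a median of 0.15 and mean levels of 5.66 to 5.76 in WT and 5.85 to 5.88 in KO. Sertoli cell genes had 6 of 13 above 0 (median -0.02) and mean levels of 7.43 to 7.49 and 7.48 to 7.52, and peritubular genes 5 of 7 (median 0.04), at 7.07 to 7.25 and 7.15 to 7.24. Of the 10 epididymal genes, 6 were above 0 (median 0.05), all at low levels. None of these genes passed the limma threshold. Without adjustment, a limma p under 0.05 was found for 5 of 10 Leydig genes and 4 of 11 macrophage genes (36.4%), all higher in KO, where 2.6% of all genes were higher at that p. It was found for 2 epididymal genes (20.0%) and 1 Sertoli gene (7.69%), also higher in KO, and for 0 peritubular genes. The part of these shifts in the members' slightly lower values was not tested.

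**Figure D4:**
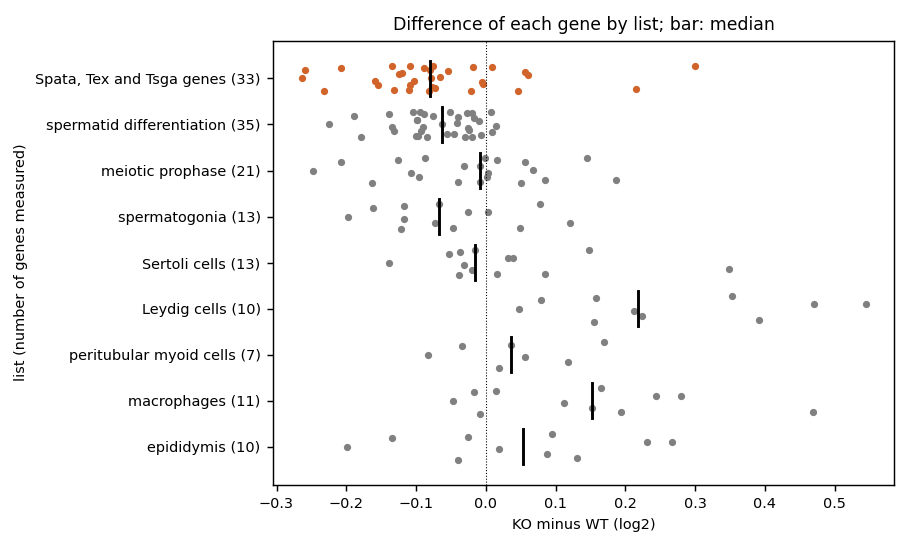
Difference between KO and WT (x axis, log2) of every measured gene of the Spata, Tex and Tsga genes (orange) and of 8 lists of germ cell, somatic and epididymal genes (grey; y axis, with the number of genes), where each bar is the median of its list and points are spread vertically for legibility. The medians run from -0.08 for the Spata, Tex and Tsga genes to 0.22 for the Leydig cell genes.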

How the data were processed

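The deposited table holds log2 values for the probe sets of 6 arrays, as made by the authors. RMA and Partek 6.5 are named in the submitters' processing notes, with no role or order; background correction and genome build: not given in the sources used here. Since RMA equalises array distributions, it would hide a change common to most genes. Values were used as deposited. Of 188590 probe sets, 179163 had 1 platform symbol and entered gene values, 1322 had several and 8105 none. Member symbols were matched to the RefSeq table of GRCm38.p6 (30 current, 2 by an older name, 1 by spelling) for names and chromosomes.

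Genotypes were compared with limma 3.58.1 in R 4.3.3, using lmFit and eBayes, two-sided, without covariates, over all genes and over all probe sets, with Benjamini-Hochberg adjustment and a threshold of 0.05. The number of arrays limits the precision, and an exact test of 3 against 3 cannot pass this threshold. Scripts were tested on simulated data.

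Named were members past the threshold, up to 8 per direction without overlap by p, the 6 highest and 6 lowest, those on chromosomes 12 and 9, those of known role, and up to 4 genes per list; the rest are given by value. Members and lists were chosen with earlier results of these data known. Alternatives covered the gene summary, a replicate block, each array left out, moderation, weights per array, normalization and a cut at the 40th percentile of level.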

Additional observations from a re-analysis of the deposited data

How the results depend on the processing

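The count of members past the limma threshold was 0 in all 14 alternatives, and so was that of their probe sets in the 12 that apply to probe sets. No gene of the 8 comparison lists passed where any was tested; with dim genes left out no epididymal gene was left to test, and with dim probe sets left out 2 were. The median difference of the members stayed below 0, at -0.10 to -0.06. The number of members below 0 was 23 (without WT 2) to 28 (without KO 1). Members with an unadjusted p under 0.05 numbered 2 with the median of probe sets, 9 with trended robust moderation, 9 with no moderation and 3 to 6 with 1 array left out. Some members, none of them past the threshold in any alternative, changed sign, with values as large as 0.50 in Tex21. With the median of probe sets Spata20 differed by 0.067, Spata21 by 0.021, Spata2L by 0.17, Spata5 by 0.00682, Tex2 by -0.053, Tex21 by 0.50 and Tex261 by -0.00188. With dim probe sets left out Spata20 stood at 0.00657 and Tex21 at 0.018, and with quantile normalization again Spata18 at 0.00753 and Spata20 at 0.00502. With 1 array left out the ranges were -0.028 to 0.028 for Spata18, -0.052 to 0.11 for Spata2, -0.031 to 0.0198 for Spata20, -0.14 to 0.078 for Spata2L, -0.21 to 0.062 for Spata3, -0.0067 to 0.0302 for Tex2, -0.0597 to 0.032 for Tex21, -0.16 to 0.17 for Tex24. The cause was not tested. The replicate numbers are shared between the groups, but same-numbered arrays did not deviate together (r = -0.17, 0.072 and 0.18 across genes) and 2 of 6 arrays correlated best with their own number; with the replicate block 0 members passed, 4 had an unadjusted limma p under 0.05 and 9 of all genes passed, against 11. Over all genes, 5 passed with the median of probe sets, 20 with trended robust moderation and 2 with no moderation. These counts over all genes and the count below 0 were added after seeing the data.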

Other observations

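Some members held a single probe set in which 1 array stood apart from the other 5, chosen here after their values were seen. In Tex10 a probe set had 10.04 in WT 2 and 11.48 to 12.00 in the other arrays. In Tex9 a probe set had 8.47 in WT 3 and 6.10 to 6.70 elsewhere. In Tex24, which has 3 probe sets, the dimmest had 7.06 in WT 3 and 7.91 to 8.75 elsewhere. These values bear on the WT spread of the 3 genes and also enter their differences between KO and WT. What set them was not tested.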
